A study of Mus musculus with 6 samples.

Results

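The genes that write and erase DNA methylation were followed in mouse acute myeloid leukaemia cells labelled as Control or as Dnmt3b knockout (Dnmt3b-KO). The set holds 10 genes chosen by symbol for their known role: the methyltransferase genes Dnmt1, Dnmt3a and Dnmt3b, the cofactors Dnmt3l, Uhrf1 and Hells, the oxidising enzymes Tet1, Tet2 and Tet3, and the glycosylase Tdg. Of these, 9 were measured among 30142 genes. The row that lists Tdg also lists Gm9855, so Tdg has no value of its own here. Each of the 9 had a single row, and no other row of the array carried the same values.

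The leukaemia was induced with MLL-AF9, a fusion oncogene, in both groups. The Control group holds 3 arrays of cells from littermate controls and the Dnmt3b-KO group 3 arrays of cells labelled as Dnmt3b knockout. Leukaemia cells were taken from recipient mice with end-stage disease and isolated from bone marrow by flow sorting, and each array measured total RNA. Mouse strain, sex, age, the Cre or allele behind the knockout, and whether each array is a separate mouse are not stated in the sources used here. P-values therefore measure the spread between these arrays, which may be technical. The comparison asks whether other methyltransferases or TET enzymes are higher or lower in the Dnmt3b-KO group.

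DNA methylation in mammals is a mark on cytosines, mostly those followed by guanine (CG). DNMT3A and DNMT3B place it on unmethylated DNA, with DNMT3L as a partner without catalytic activity of its own. After replication, UHRF1 recognises DNA methylated on a single strand and brings in DNMT1, which copies the mark to the new strand. HELLS is a chromatin remodeller that opens packed DNA to the methyltransferases. TET enzymes oxidise the methyl group, and TDG removes the oxidised bases so that repair can restore an unmethylated cytosine. In the blood system, Dnmt3a and Tet2 are well known as genes mutated in myeloid disease.

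Values are on the authors' log2 scale. They reach 19.59, higher than a scanner's log2 range, so differences are given in these log2 units and not as folds. Rows of different genes are not set against each other. Dnmt3b-KO replicate 3 stood apart from the other arrays. It correlated with them across genes at 0.980 to 0.982, against 0.998 to 0.999 among the other 5. It also carried Y-chromosome transcripts that the others lacked, with Eif2s3y at 8.26 there and at 4.41 to 4.54 elsewhere. Macrophage markers were high on it. Of 20 listed, 19 were measured and 13 of these exceeded Dnmt3b-KO replicates 1 and 2 by more than 1, as did 4.03% of all genes. The summed level of the 19 ran from 124.7 to 127.5 in Control, was 124.9 and 127.8 on Dnmt3b-KO replicates 1 and 2, and 193.5 on replicate 3. Some defining markers stayed there in the range of the 23 background control rows over the 6 arrays, 2.30 to 5.62. These were C1qa at 4.84, Cd163 at 4.89, Marco at 5.06 and Axl at 4.49. Others lay above that range, with Gpnmb at 16.16, Mrc1 at 12.05, C1qb at 9.75 and C1qc, close to its top, at 5.75. Vcam1, at 9.04, was the 1 marker lower than on replicates 1 and 2 by more than 1. Of 14 listed MLL-AF9 leukaemia genes 12 were measured. Flt3 lay inside the background range on all arrays, at 4.24 to 4.62, while Mpo, a granule enzyme gene, lay at 16.54 to 17.49. On Dnmt3b-KO replicate 3 the list had a median of -0.92 against replicates 1 and 2. There 5 genes were lower by more than 1, as were 2.94% of all genes. The 5 included Meis1 (-1.81), Kit (-1.70) and Hoxa5 (-1.39). The 2 higher by more than 1 were Mef2c (2.52) and Itgam (1.49), where 4.03% of all genes were. Over 5 arrays Meis1 and Cdk6 rose, Pbx3 and Mef2c fell and 8 did not pass, where 1.69% of all genes passed. Over 6 arrays 0 passed. This list was chosen with earlier results of these data known. All 8 measured T cell markers lay at 3.77 to 4.69, and 8 of 9 B cell markers at 3.69 to 4.64. Cd79b was the exception at 7.79 to 9.32. Of 10 erythroid markers 6 were measured, at 3.96 to 7.38. Their summed level was 30.3 to 32.6 in Control, 28.0 to 29.1 on Dnmt3b-KO replicates 1 and 2 and 28.0 on replicate 3. All 6 had differences below zero in both comparisons, which share 5 arrays, and 0 passed. Of all 30142 genes, 15437 lay below zero over 6 arrays and 16195 over 5. Over 5 arrays Alas2 differed by -1.15 (limma, adjusted p = 0.071) and Slc4a1 by -1.04 (adjusted p = 0.162). Each of the 9 genes is therefore given over all 6 arrays and over the 5 arrays without Dnmt3b-KO replicate 3, with that array's value apart. Genes of the other lists are given over 5 arrays, with a remark where the 6-array difference has the opposite sign.

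Dnmt3b itself was read first, since it is the targeted gene. It measured 6.76, 6.83 and 6.78 in Control, 6.47 and 6.63 on Dnmt3b-KO replicates 1 and 2, and 5.96 on Dnmt3b-KO replicate 3. All 3 Dnmt3b-KO arrays lay below every control, and the distance was more than 2 times greater on replicate 3 than on either of the others. Over 6 arrays the difference was -0.44 ± 0.17 (SE; 95% interval -0.87 to -0.01; limma, adjusted p = 0.781). Over 5 arrays it was -0.24 ± 0.07 (-0.41 to -0.08; adjusted p = 0.159). Neither passed the threshold of 0.05. Its row sums up the transcript as a whole, and the sources used here do not say which exons were removed, so the level is a weak check of the labels. In a bulk sample, fewer cells with a transcript and less transcript per cell cannot be told apart.

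The DNA upstream of the start of Dnmt3b is shown because it is the targeted gene, and beside it the same stretch of Uhrf1 and Hells, members coupled to DNA replication. Each line gives 250 bases before an annotated transcript start, taken from RefSeq (GRCm38.p6) and written 5′ to 3′ on the strand of the gene. Capitals mark E2F-type motifs, searched on both strands as TTCCCGC or as TTCGCGC, and also as TTGCCGC or as TTGGCGC. E2F factors are known to switch on S phase genes.
Dnmt3b, chr2:153649199-153649448, + strand: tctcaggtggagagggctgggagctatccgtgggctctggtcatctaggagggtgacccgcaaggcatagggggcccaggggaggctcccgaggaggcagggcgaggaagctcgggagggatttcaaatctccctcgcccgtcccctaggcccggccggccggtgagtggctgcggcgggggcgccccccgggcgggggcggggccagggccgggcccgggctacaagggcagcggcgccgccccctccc
Uhrf1, chr17:56303087-56303336, + strand: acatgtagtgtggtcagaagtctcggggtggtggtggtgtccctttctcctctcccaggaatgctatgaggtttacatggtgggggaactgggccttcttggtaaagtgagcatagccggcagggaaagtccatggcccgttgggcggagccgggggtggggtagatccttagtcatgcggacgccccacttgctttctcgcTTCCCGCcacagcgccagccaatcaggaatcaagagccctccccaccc
Hells, chr19:38930740-38930989, + strand: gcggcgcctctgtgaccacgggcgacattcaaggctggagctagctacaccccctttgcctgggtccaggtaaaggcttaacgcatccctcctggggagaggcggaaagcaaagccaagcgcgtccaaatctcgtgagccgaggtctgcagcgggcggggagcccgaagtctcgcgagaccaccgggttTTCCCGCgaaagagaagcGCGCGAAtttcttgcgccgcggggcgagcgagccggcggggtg
The window of Uhrf1 held 1 such motif and that of Hells 2, while that of Dnmt3b held 0. All 10 genes matched at least 1 window in RefSeq. A second window of Uhrf1 held 1 motif, and 1 of 3 windows of Dnmt1 held 2. Windows of Dnmt3a, Dnmt3l, Tet1, Tet2, Tet3 and Tdg held 0. Of all 32851 windows of this length, 7.89% held at least 1. The Dnmt3b window was rich in the CG pairs that methyltransferases act on, with 21, where the median window had 6. The Tet2 window had 51 and the 2 upstream windows of Dnmt3a had 38 and 40. A match describes the letters and is not evidence of binding.

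**Figure D1:**
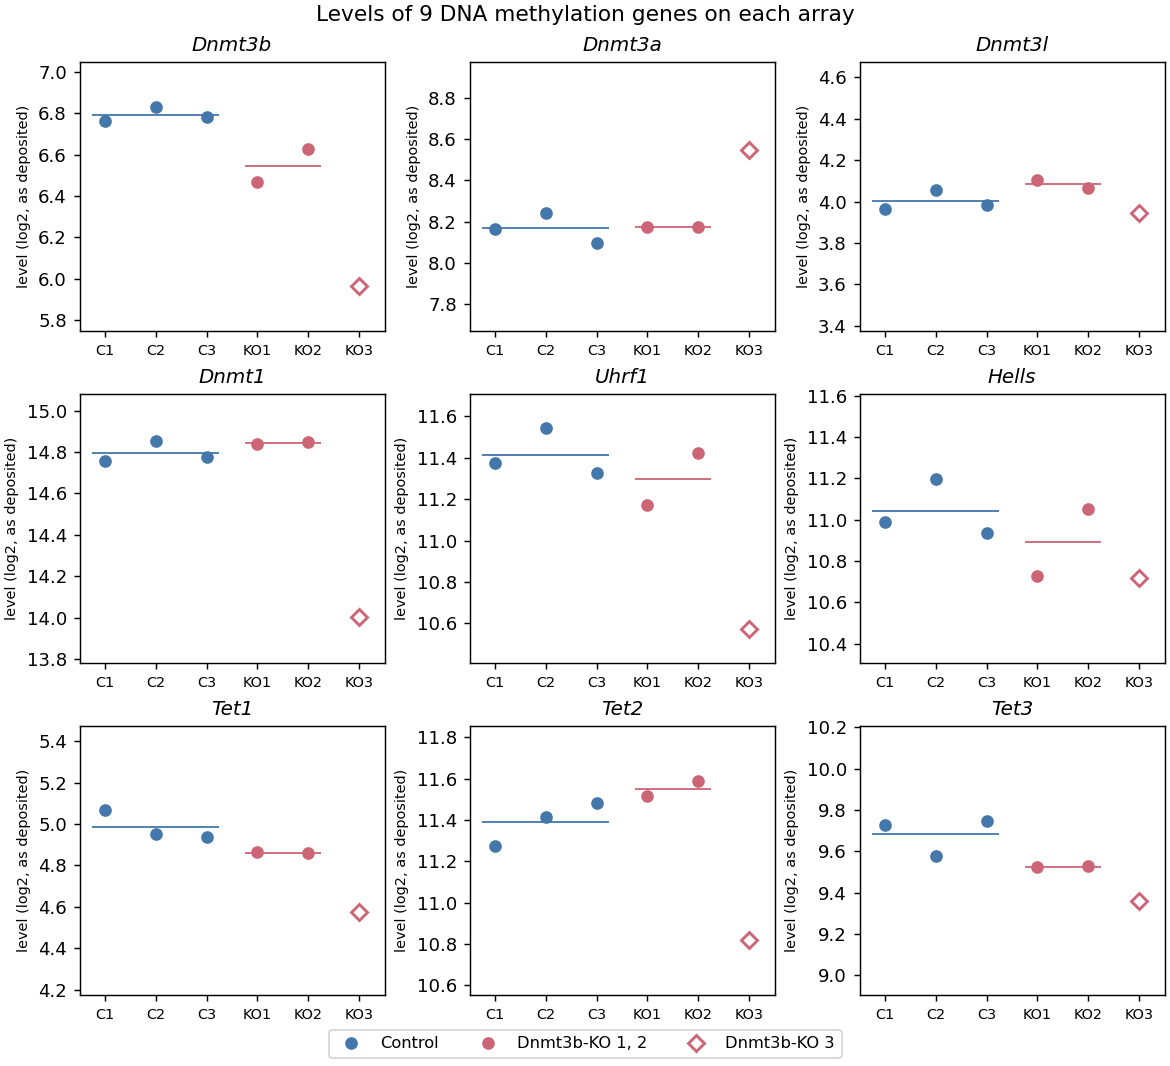
Level of each gene on each array (log2 values as deposited), with Control arrays C1 to C3 as blue points, Dnmt3b-KO replicates 1 and 2 as red points and Dnmt3b-KO replicate 3 as an open diamond; lines are means of Control and of Dnmt3b-KO replicates 1 and 2, and every panel spans the same height. Dnmt3b lies below the controls on all 3 Dnmt3b-KO arrays, Dnmt1 and Tet2 are low on replicate 3 only among the Dnmt3b-KO arrays, and Dnmt3a is high there at 8.55.

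Among the de novo methyltransferases, Dnmt3a is the closest relative of Dnmt3b. It measured 8.16, 8.24 and 8.10 in Control, 8.18 and 8.17 on Dnmt3b-KO replicates 1 and 2, and 8.55 on Dnmt3b-KO replicate 3. Replicates 1 and 2 lay inside the control range and replicate 3 above it. The 5-array difference was 0.01 ± 0.06 (SE; 95% interval -0.15 to 0.16; adjusted p = 0.980), so a rise of more than 0.16 or a fall of more than 0.15 lies outside the interval on those arrays. Over 6 arrays the difference was 0.13 ± 0.12 (-0.16 to 0.42; adjusted p = 0.833). Dnmt3a was the only measured member that was higher on Dnmt3b-KO replicate 3 than on the mean of replicates 1 and 2, by 0.37. Of all genes 53.5% were higher there, and 71.5% deviated by less than Dnmt3a in either direction.

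Dnmt3l, the partner without catalytic activity, measured 3.96, 4.06 and 3.98 in Control, 4.11 and 4.07 on Dnmt3b-KO replicates 1 and 2, and 3.94 on Dnmt3b-KO replicate 3. These values lie inside the span of the background control rows. The 5-array difference of 0.08 ± 0.06 (-0.06 to 0.22; adjusted p = 0.585) is therefore a difference between readings at background.

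The maintenance enzyme Dnmt1 was steady on 5 arrays. It measured 14.76, 14.86 and 14.78 in Control, 14.84 and 14.85 on Dnmt3b-KO replicates 1 and 2, and 14.00 on Dnmt3b-KO replicate 3. The first 5 values span 0.10, and replicate 3 lies 0.75 under the lowest of them. Over 5 arrays the difference was 0.05 ± 0.06 (SE; 95% interval -0.09 to 0.19; adjusted p = 0.791). With Dnmt3b-KO replicate 3 included it was -0.23 ± 0.24 (-0.82 to 0.36; adjusted p = 0.840), so that single array sets both the sign and the width of the interval.

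Uhrf1, which brings DNMT1 to replicated DNA, measured 11.37, 11.55 and 11.33 in Control, 11.17 and 11.42 on Dnmt3b-KO replicates 1 and 2, and 10.57 on Dnmt3b-KO replicate 3. Groups overlapped on 5 arrays, with a difference of -0.12 ± 0.10 (-0.36 to 0.13; adjusted p = 0.686). Over 6 arrays the difference was -0.36 ± 0.22 (-0.91 to 0.19; adjusted p = 0.833).

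Hells measured 10.99, 11.20 and 10.93 in Control, 10.73 and 11.05 on Dnmt3b-KO replicates 1 and 2, and 10.72 on Dnmt3b-KO replicate 3. Here replicates 1 and 3 were nearly level, and replicate 2 lay inside the control range. The difference was -0.15 ± 0.12 (-0.44 to 0.14; adjusted p = 0.653) over 5 arrays and -0.21 ± 0.12 (-0.51 to 0.09; adjusted p = 0.830) over 6.

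These maintenance genes are expressed as cells copy their DNA, so S phase genes were read beside them. Of 30 listed S phase genes 29 were measured. Their mean level was 10.79, 10.91 and 10.85 in Control, 10.72 and 10.84 on Dnmt3b-KO replicates 1 and 2, and 10.21 on Dnmt3b-KO replicate 3. Control replicate 2 was the highest of the 6 arrays for the S phase mean, Uhrf1, Hells and Dnmt3b alike. Dnmt3b-KO replicate 1 was the lowest apart from replicate 3 for each of them. For Dnmt3b, Dnmt3b-KO replicate 2 also lay below every control. Dnmt1 was also highest on Control replicate 2 but otherwise had another order. Control replicate 1 was its lowest apart from Dnmt3b-KO replicate 3, and Dnmt3b-KO replicate 1 lay 0.04 over its control mean. Against its control mean, Dnmt3b-KO replicate 3 deviated by -0.64 for the S phase mean, -0.79 for Dnmt1, -0.85 for Uhrf1, -0.83 for Dnmt3b and -0.32 for Hells. On Dnmt3b-KO replicates 1 and 2 the S phase mean deviated by -0.13 and -0.005, and Dnmt3b by -0.33 and -0.16. The part of S phase genes in the differences of the members was not tested.

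**Figure D2:**
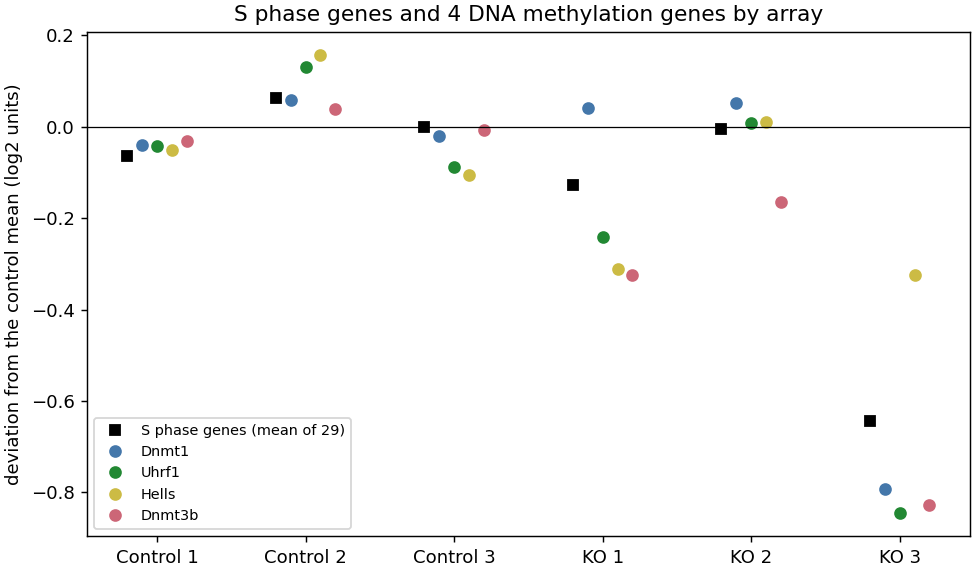
Deviation from the control mean (log2 units) on each array for the mean of 29 S phase genes (black squares) and for Dnmt1, Uhrf1, Hells and Dnmt3b (coloured points). On Dnmt3b-KO replicate 3 the S phase mean lies at -0.64 and Dnmt1, Uhrf1 and Dnmt3b lie between -0.79 and -0.85; on Dnmt3b-KO replicate 2 Dnmt3b is the one of the 4 below zero, at -0.16.

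No TET gene passed in either comparison. All 3 lay below every control on Dnmt3b-KO replicate 3. Tet2 measured 11.27, 11.41 and 11.48 in Control, 11.52 and 11.59 on Dnmt3b-KO replicates 1 and 2, and 10.82 on Dnmt3b-KO replicate 3. Replicates 1 and 2 lay above every control, the nearer by a small margin, and replicate 3 lay below every control. The difference was 0.16 ± 0.08 (SE; 95% interval -0.03 to 0.35; adjusted p = 0.401) over 5 arrays, and -0.08 ± 0.22 (-0.61 to 0.45; adjusted p = 0.940) over 6.

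Tet3 measured 9.73, 9.58 and 9.75 in Control, 9.52 and 9.53 on Dnmt3b-KO replicates 1 and 2, and 9.36 on Dnmt3b-KO replicate 3. All 3 Dnmt3b-KO values lay below every control. The difference was -0.16 ± 0.07 (-0.33 to 0.01; adjusted p = 0.360) over 5 arrays and -0.21 ± 0.08 (-0.41 to -0.02; adjusted p = 0.761) over 6.

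Tet1, best known from embryonic stem cells, measured 5.07, 4.95 and 4.94 in Control, 4.87 and 4.86 on Dnmt3b-KO replicates 1 and 2, and 4.58 on Dnmt3b-KO replicate 3. Its values also lie inside the span of the background rows taken over all arrays. On Control replicate 1, however, it lay above the highest background row of that array, 4.97. The size of its difference is therefore not exact. It was -0.12 ± 0.06 over 5 arrays (-0.28 to 0.03, limma, adjusted p = 0.434) and -0.22 ± 0.10 over 6 (-0.46 to 0.02, adjusted p = 0.820).

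**Figure D3:**
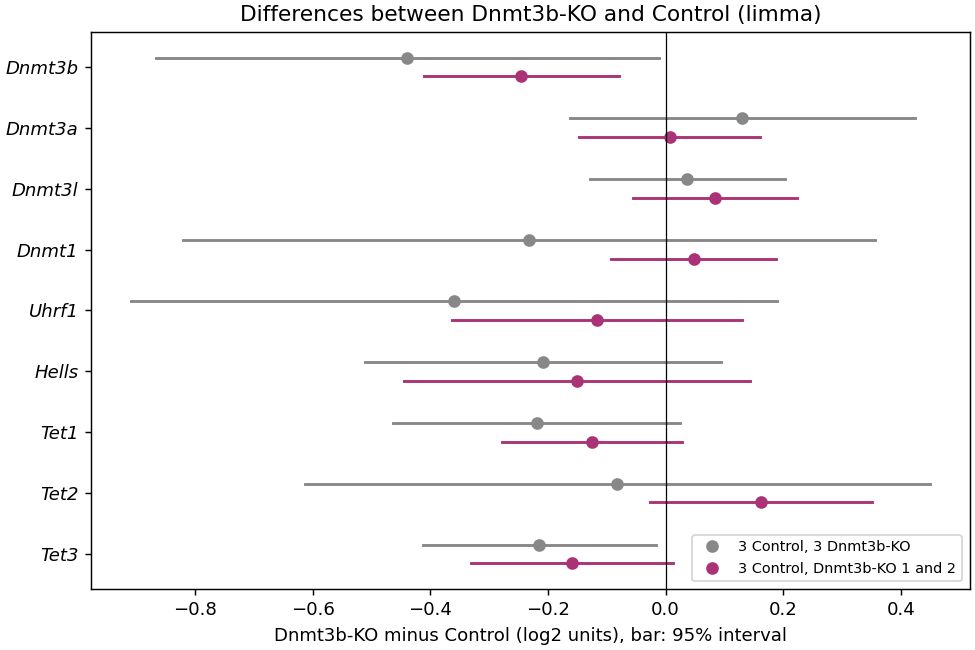
Difference between Dnmt3b-KO and Control for each gene (log2 units), with bars for the 95% interval of limma; grey uses all 6 arrays and purple leaves out Dnmt3b-KO replicate 3. The purple intervals of Dnmt3a and Dnmt1 lie within 0.2 of zero, and Dnmt3b has a 5-array interval wholly below zero before adjustment over all genes.

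Across the set, 0 of 9 members passed the adjusted threshold of limma in either comparison. Over 6 arrays 0% of all genes passed, and 2 members, Dnmt3b and Tet3, had an unadjusted p under 0.05, as did 6.37% of all genes. Over 5 arrays 1.69% of all genes passed, and 1 member, Dnmt3b, had an unadjusted p under 0.05, as did 15.5% of all genes. A test without empirical Bayes called 0 genes of all 30142 in either comparison, and so 0 members. The Dnmt3b-KO arrays lay below every control for 3 members, Dnmt3b, Tet1 and Tet3, where 8.21% of all genes did so, and above every control for 0, where 6.68% did. Dnmt3b-KO replicates 1 and 2 alone lay below every control for those 3 (17.4% of all genes) and above for Dnmt3l and Tet2 (15.1%). The median difference of the 9 was -0.21 over 6 arrays and -0.12 over 5, beside -0.004 and -0.01 for all genes. On the 5 arrays the highest upper interval bound among the other methyltransferase and TET genes was 0.35, for Tet2. The intervals are not adjusted for the number of genes, and a change inside a gene's interval cannot be told from no change with these arrays.

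Dnmt3b-KO replicate 3 lay below every control for 8 members, where 36.4% of all genes did, and above for 1, Dnmt3a, where 39% did. It was lower than the mean of replicates 1 and 2 by more than 0.5 for 4 members, as were 11.9% of all genes, and higher by more than 0.5 for 0, where 9.03% were. These were Dnmt1 (-0.84), Tet2 (-0.73), Uhrf1 (-0.73) and Dnmt3b (-0.58). No member was lower by more than 1 (2.94% of all genes) or higher by more than 1 (4.03%). Tet1 (-0.29), Hells (-0.17), Tet3 (-0.16) and Dnmt3l (-0.14) deviated less. The S phase list had a median deviation of -0.67 on the same scale, with single genes from -1.15 to 0.04. The 19 macrophage markers had a median of 3.92. That array holds 1 sample, so these deviations carry no test, and the part of S phase genes or of macrophage transcripts in them was not tested.

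**Figure D4:**
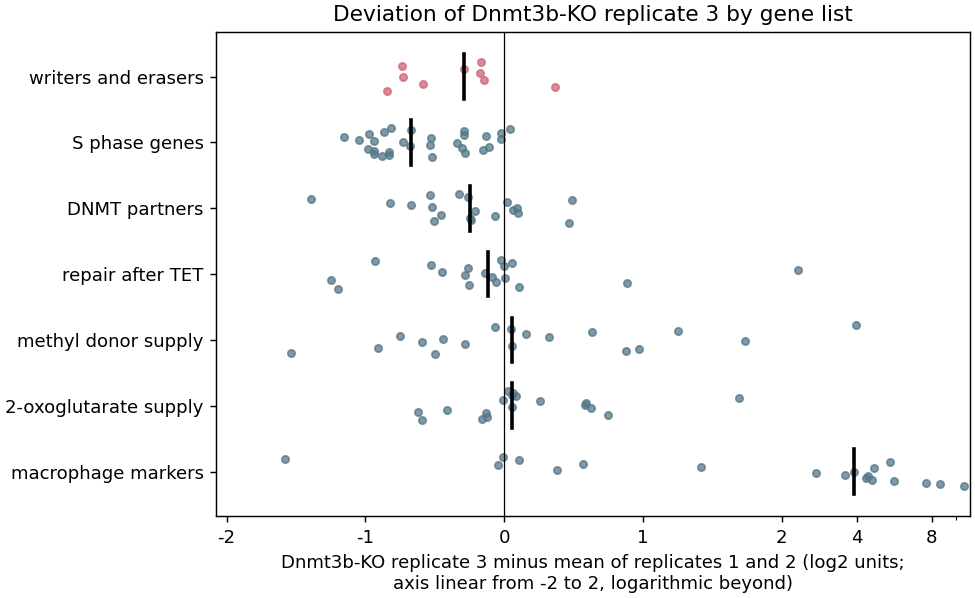
Dnmt3b-KO replicate 3 minus the mean of replicates 1 and 2 (log2 units; axis linear from -2 to 2 and logarithmic beyond) for each measured gene, by list; black bars are list medians. The writers and erasers lie between -0.84 and 0.37, S phase genes have a median of -0.67, and macrophage markers have a median of 3.92.

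The proteins around the methyltransferases were read as a list of 19 partners and regulators, all measured. Of these, 0 passed in either comparison, where 1.69% of all genes passed over 5 arrays and 0% over 6. The median difference was -0.03 over 5 arrays and -0.11 over 6. Cdca7, which activates HELLS and is a disease gene of the same human syndrome (ICF) as DNMT3B, ZBTB24 and HELLS, measured 11.33, 11.54 and 11.44 in Control, 11.01 and 11.18 on Dnmt3b-KO replicates 1 and 2, and 10.85 on replicate 3. All 3 lay below every control, as they did for 8.21% of all genes. The 5-array difference of Cdca7 was -0.34 ± 0.09 (SE; adjusted p = 0.135). Zbtb24, a transcription factor gene, differed by -0.09 ± 0.07 (adjusted p = 0.627). Uhrf2, the paralogue of Uhrf1, differed by -0.20 ± 0.09 (adjusted p = 0.389), and stood at 9.97 on replicate 3, above every control. The others named by smallest p, up to 2 per direction, were Cdca7l at 0.21 ± 0.09 (adjusted p = 0.324), the replication clamp gene Pcna at 0.14 ± 0.07 (adjusted p = 0.423) and the heterochromatin protein gene Cbx5 at -0.19 ± 0.06 (adjusted p = 0.221).

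Downstream of the TET enzymes, 18 of 21 listed genes for base excision repair and demethylation were measured. Over 5 arrays 1 rose, 0 fell and 17 did not pass, beside 0.939% and 0.75% of all genes that rose and fell, with a median difference of 0.02, and over 6 arrays 0 passed, with a median of -0.06. The one that passed was Apobec1, a cytidine deaminase gene known chiefly for RNA editing. It measured 9.85, 9.93 and 9.99 in Control, 10.57 and 10.63 on Dnmt3b-KO replicates 1 and 2, and 12.93 on replicate 3. Its 5-array difference was 0.67 ± 0.06 (SE; adjusted p = 0.016), and over 6 arrays 1.45 ± 0.65 (adjusted p = 0.820). It stood a further 2.33 higher on the array where macrophage markers were high. Its 5-array call ended without control replicate 1 (adjusted p = 0.070), without Dnmt3b-KO replicate 1 (0.117) or replicate 2 (0.103), and without empirical Bayes (0.201). Neil3, a DNA glycosylase gene, differed by 0.31 ± 0.07 over 5 arrays (adjusted p = 0.100) but lay below every control on replicate 3, at 9.85, which turned the 6-array difference to -0.10. The repair polymerase gene Polb differed by -0.20 ± 0.07 (adjusted p = 0.225) and the uracil glycosylase gene Ung by -0.10 ± 0.06 (adjusted p = 0.474). Mbd4, the other glycosylase known to act at methylated CG sites, differed by -0.06 ± 0.08 (adjusted p = 0.816) and stood at 8.13 on replicate 3, against 9.24 to 9.50 on the other 5.

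The methyl donor S-adenosylmethionine is made through the folate and methionine cycles. Of 22 genes in that list 18 were measured and 0 passed, where 1.69% of all genes passed over 5 arrays and 0% over 6. The median difference was -0.09 over 5 arrays and -0.05 over 6. Mthfd1, a folate enzyme gene, measured 11.13, 11.31 and 11.32 in Control and 10.79, 10.98 and 10.61 in Dnmt3b-KO. All 3 Dnmt3b-KO values lay below every control, as they did for 8.21% of all genes. The 5-array difference of Mthfd1 was -0.37 ± 0.09 (SE; adjusted p = 0.118). Ahcyl2, a relative of the enzyme that clears the spent donor, differed by -0.24 ± 0.06 (adjusted p = 0.117), Slc43a2, an amino acid transporter gene, by 0.18 ± 0.06 (adjusted p = 0.204) and Mtr, methionine synthase, by 0.10 ± 0.07 (adjusted p = 0.565). Over 6 arrays Ahcyl2 turned to 0.08, with 6.91 on Dnmt3b-KO replicate 3, above every control, and Mtr to -0.20, with 11.22 there, below every control. Mtap, which salvages methionine and was picked after its values were seen, measured 12.69 on Dnmt3b-KO replicate 3 and 8.59 to 8.91 on the other 5.

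TET enzymes need 2-oxoglutarate, which isocitrate dehydrogenases make. Of 20 genes listed for its supply and for TET partners 18 were measured and 0 passed. Of all genes 1.69% passed over 5 arrays and 0% over 6. The medians of the list were -0.02 over 5 arrays and 0.01 over 6. Idh2 differed by 0.001 ± 0.10 (adjusted p = 0.997) and Idh1 by -0.04 ± 0.12 (adjusted p = 0.924) over 5 arrays. Over 6 arrays the difference of Idh2 was -0.05. The 2 with the smallest p on the lower side were Fh1, fumarate hydratase, at -0.16 ± 0.06 (adjusted p = 0.265), and Idh3b at -0.12 ± 0.06 (adjusted p = 0.396). Both turned over 6 arrays, to 0.04 and 0.13, and lay above every control on Dnmt3b-KO replicate 3, at 11.27 and 14.04. On the higher side they were Ogt at 0.14 ± 0.10 (adjusted p = 0.599) and Slc23a1 at 0.07 ± 0.05 (adjusted p = 0.653), the last with levels inside the span of the background rows.

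Germline genes are the textbook targets that promoter methylation keeps silent in other tissues. Of 28 listed 25 were measured. Over 5 arrays 3 rose, 0 fell and 22 did not pass, beside 0.939% and 0.75% of all genes that rose and fell. The median difference was 0.004. Over 6 arrays 0 passed and the median was 0.04. They were Dmc1 and Stag3, genes of meiotic recombination and cohesion, and Tdrd9, a helicase gene that acts against transposons in the germline, with rises of 1.40 ± 0.07 (SE; adjusted p = 0.0029), 1.35 ± 0.08 (0.0045) and 2.39 ± 0.09 (0.00098). In Control Dmc1 measured 9.90, 9.89 and 9.72, above all background rows, so it was not silent there. Tdrd9 measured 5.36, 5.37 and 5.28 in Control and Stag3 4.95, 4.96 and 5.16. Those Control levels lie inside the span of the background rows taken over all arrays. The highest background row was, however, 4.97 on Control replicate 1 and 4.96 on Control replicate 3. Tdrd9 lay above it on both of these arrays, and Stag3 on Control replicate 3. All 3 genes were put on the list with their rise in these data known, so the count is no independent evidence. The calls of all 3 ended without empirical Bayes (adjusted p from 0.174 to 0.184). Without Dnmt3b-KO replicate 1 those of Dmc1 (0.053) and Stag3 (0.061) ended, and without replicate 2 that of Stag3 (0.051). On Dnmt3b-KO replicate 3 Tdrd9 measured 6.29 and Stag3 5.37, against 7.59 and 6.37 on replicate 1, and Dmc1 at 9.68 lay below every control. Classical targets of DNA methylation such as Ddx4 (-0.14 ± 0.07; adjusted p = 0.414) and Hormad1 (-0.18 ± 0.06; adjusted p = 0.215) did not pass, at levels inside the span of the background rows. S phase genes had 0 of 29 past the threshold in either comparison, where 1.69% of all genes passed over 5 arrays and 0% over 6. Their medians were -0.05 over 5 arrays and -0.27 over 6. The 2 with the smallest p on the lower side over 5 arrays were Gins3 (-0.24; adjusted p = 0.186) and Cdc6 (-0.34; 0.336), and on the higher side Ccne1 (0.07; 0.639) and Pold1 (0.06; 0.808; -0.19 over 6 arrays).

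**Figure D5:**
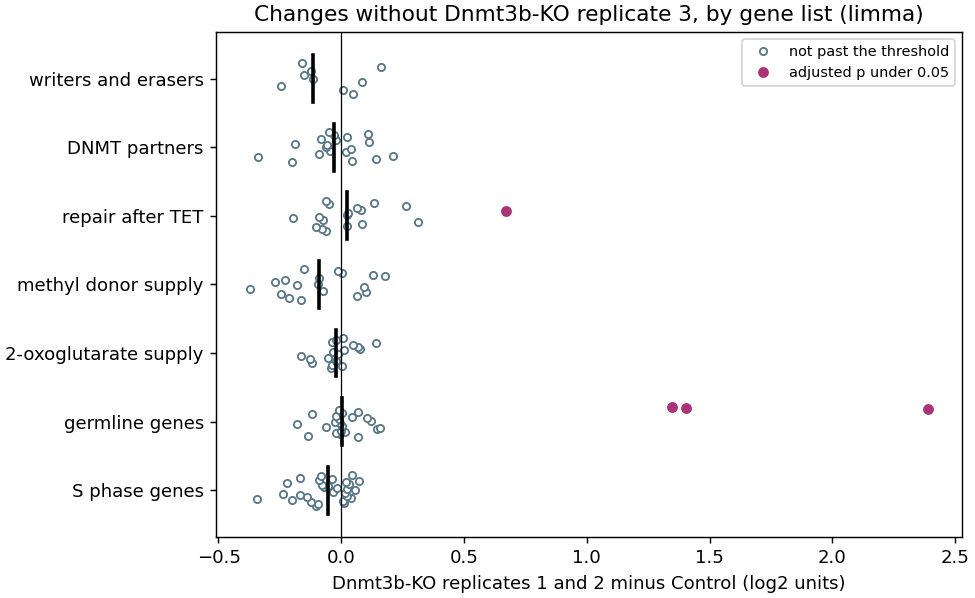
Difference between Dnmt3b-KO replicates 1 and 2 and Control (log2 units) for each measured gene by list, with filled points for genes past an adjusted p of 0.05 in limma and bars for list medians. No writer or eraser is filled, Apobec1 is the filled point among repair genes at 0.67, and the filled germline genes lie at 1.35, 1.40 and 2.39.

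The genes whose pattern was most like that of Dnmt3b were taken as those with the smallest root mean square difference in deviation from the control mean over 6 arrays, among 15063 genes with a mean above the median gene. They were Atad3a (0.033), Jmjd8 (0.035), Taf9b (0.035), Gen1 (0.040) and Nme3 (0.042), in log2 units. Atad3a, a mitochondrial membrane ATPase gene, measured 8.40, 8.49 and 8.43 in Control and 8.12, 8.32 and 7.67 in Dnmt3b-KO. Among the other members Uhrf1 came nearest, at 0.093, and Dnmt3a was farthest, at 0.516. None of these 5 genes lies on the chromosome of Dnmt3b. Many genes shifted with the deviation of Dnmt3b-KO replicate 3, which weighs most in this measure.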

How the data were processed

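Sorted leukaemia cells were measured on 6 one-colour arrays, 3 Control and 3 Dnmt3b-KO. The deposited log2 values were normalized by the authors with RMA (version not stated), as listed per the submitters' processing notes, and their direction and scale were kept. A further unstated step must have changed the scale, since values pass the scanner's range. Rows were named through an array annotation dated earlier than the reference used here: 30604 rows had exactly 1 symbol and 2146 several, and 827 symbols were updated through the gene identifier against a GRCm38.p6 gene table. Each gene was represented by its highest-mean row. Groups were compared in limma 3.58.1 under R 4.3.3, after a test on simulated data. The steps were lmFit, eBayes and Benjamini-Hochberg over 30142 genes, with a threshold of 0.05 and 95% intervals. The simulated spread was that of the 5 arrays without Dnmt3b-KO replicate 3, so the test did not cover the spread over 6 arrays. Number of arrays limits the precision. The genes, lists, the 5-array comparison and the rule for named genes (all members; up to 2 per list and direction with the smallest p; the 5 genes most like Dnmt3b) were chosen with earlier results of these data known. Other genes named for their role or value lie outside that rule and were picked after their values were seen. Marker lists for other cell types are given by range, with some members named. Alternatives were a variance trend, no empirical Bayes, quantile normalization, centring, a filter on dim genes, the mean of rows, array weights, a block for the replicate number and leaving out each array. Figures were drawn with matplotlib 3.10.9.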

Additional observations from a re-analysis of the deposited data

How the results depend on the processing

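Over 6 arrays the count of genes past the threshold was 0 in the planned fit, 103 with array weights and 0 to 509 when 1 array was left out, where 509 came from leaving out Dnmt3b-KO replicate 3. Array weights gave that array 0.11, against 1.26 to 2.17 for the others. Over 5 arrays the count of 509 became 0 without empirical Bayes, 996 among genes above the median level, which tests fewer genes, 96 with the replicate number as a block, and 13 to 262 when 1 more array was left out. Why the remaining counts moved was not tested. Between samples with the same replicate number, deviations from the group means correlated at 0.13, 0.03 and 0.11. Those means include Dnmt3b-KO replicate 3, which stands apart, so these values cannot decide whether the numbers mark pairs. With the block over 6 arrays the count stayed 0. No member passed the threshold under any alternative run: 224 of the recomputed member values kept their direction and 8 turned. Over 6 arrays Dnmt1 turned to 0.0262 and Tet2 to 0.154 with array weights, and leaving out 1 array gave -0.38 to 0.0477 for Dnmt1 and -0.22 to 0.162 for Tet2, the higher value without Dnmt3b-KO replicate 3. Over 5 arrays Dnmt3a turned to -0.0281 with the replicate block, and leaving out 1 more array gave -0.0281 to 0.0448 for Dnmt3a, -0.24 to 0.0084 for Uhrf1 and -0.31 to 0.0101 for Hells, the higher values of Uhrf1 and Hells without Dnmt3b-KO replicate 1. Dnmt3b lay below Control throughout, from -0.58 to -0.24 over 6 arrays and from -0.33 to -0.16 over 5. With the replicate block over 5 arrays the call of Apobec1 ended (adjusted p = 0.059). Dnmt3l fell outside the filter on dim genes and has no value there. Where a Dnmt3b-KO array stands alone it is assumed to vary like the controls.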
